A study of Homo sapiens with 22 samples.

Results

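The chromosome 6 transcript clusters are the units of the Human Transcriptome Array 2.0 whose ID starts with TC06, where the characters after TC follow the array maker's chromosome code. A transcript cluster is the array's unit for a transcribed region, measured by many probes. The rule took 4093 of the 65526 clusters on the array, with ID numbers from 1 to 4156. Membership was set by the ID prefix, but the code itself was chosen by earlier results of these same 22 arrays, in which chromosome codes were compared by the changes of their clusters. Values for the code as a whole are therefore given as a description, without a test, and tests are those of single clusters, adjusted over all 65526. The files do not pair the IDs with genes or with positions on a genome, so the chromosome code could not be checked against a map and clusters are given by their IDs.

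Chromosome 6 carries the major histocompatibility complex, whose class I and class II molecules present peptides to T cells and which also holds complement and antigen processing genes. It also carries a large cluster of replication-dependent histone genes, whose transcripts rise in S phase and end in a stem-loop in place of a poly(A) tail. Several of these families consist of near-identical copies, so array probes may be shared between members. Which clusters lie in these regions is not given in the files.

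The study infected JHOC9 and JHOC5, which are established human ovarian clear cell carcinoma lines, in dishes with 1 of 3 lentiviruses. NT is the control virus. SPINK1 KD is the virus against SPINK1, whose product is secreted and inhibits trypsin, and IL-6 KD is the virus against IL-6, an inflammatory cytokine. Each line had 5 NT arrays, 3 SPINK1 KD arrays and 3 IL-6 KD arrays, each made from 200 ng of total RNA, which gives 6 groups. JHOC9 was kept in 20% serum and JHOC5 in 10% serum, so the effects of line and serum cannot be told apart. There was 1 virus per target, so an effect of the target and one of that virus cannot be told apart either. Experiments lettered A to E are named for the NT arrays, and only a replicate letter for the knockdown arrays. Whether the arrays of a group came from separate cultures is not stated, so a p-value here reflects array-to-array spread, which may be technical, and fewer cells or less RNA per cell cannot be told apart. Checking the knockdowns or the identity of the lines needs gene names and was not analysed here.

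Values are log2 signals. On the 22 arrays the median log2 signal of the TC06 clusters lay between 4.36 and 4.52, beside array medians between 4.78 and 4.95. Between 41.8% and 43.3% of the TC06 clusters lay above the median of their array, and 1903 of the 4093 did so on at least 3 arrays. The files give no detection call per cluster, and the number of arrays limits the precision. Arrays of the same group differed by at least 0.151 (root mean square of the log2 differences over all clusters), so none repeated another.

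With either virus most chromosome 6 clusters were not called, and the share called was close to that of all clusters. A cluster was called when its adjusted p was under 0.05 in limma's moderated test with Benjamini-Hochberg adjustment over all 65526 clusters. With the SPINK1 virus 261 of 4093 (6.38%) were called in JHOC5 and 5 (0.122%) in JHOC9, beside 6.54% and 0.0839% of all clusters. With the IL-6 virus 46 (1.12%) were called in JHOC5 and 9 (0.220%) in JHOC9, beside 1.39% and 0.243%. Between the NT arrays of the lines 1096 (26.8%) were called, beside 30.1%. Shares this near the background say nothing particular about the members, and the results below give which clusters moved and where they lie in ID order.

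**Figure D1:**
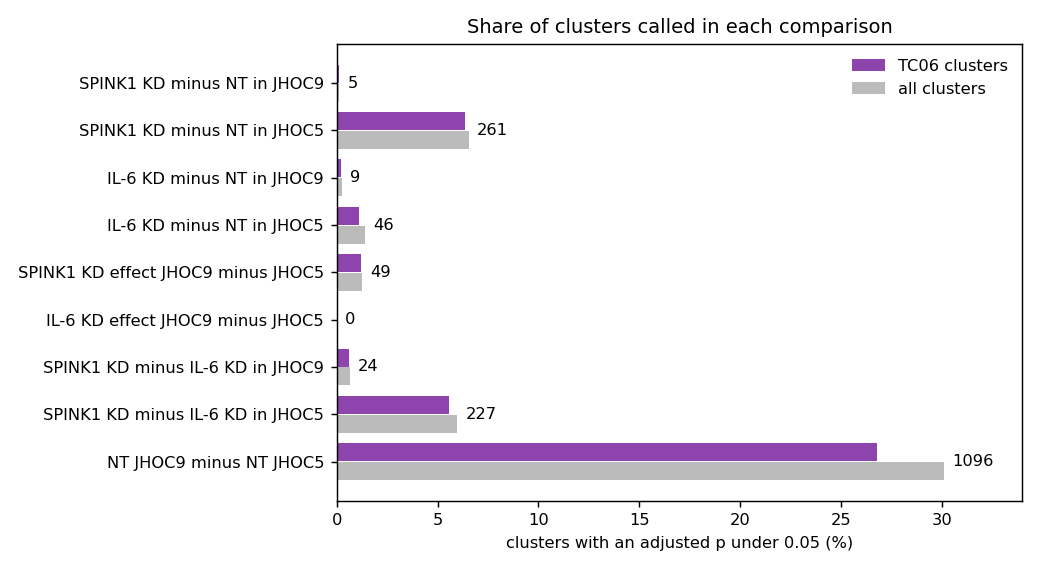
Percent of clusters with an adjusted p under 0.05 (x axis) in the 9 comparisons (y axis), for the 4093 TC06 clusters and for all 65526 clusters. The number beside each pair of bars is the count of TC06 clusters called, from 0 for the difference of the IL-6 effects to 1096 between the NT groups.

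The first comparison was of the SPINK1 virus with the control virus. In JHOC5 106 TC06 clusters rose and 155 fell with the SPINK1 virus, 2.59% and 3.79% of the members, beside 2.68% and 3.86% of all clusters. The changes were mostly small, since 3 of the rises and 18 of the falls were at least 2-fold. The median change over all members was 0.045 on the log2 scale, beside 0.048 over all clusters. The balance of the directions depended on the scaling. With each array centred on its median 55 rose and 154 fell, with cyclic loess 71 and 166, and with array weights 216 and 211. Without JHOC5 SPINK1 KD replicate e, 160 clusters were called in place of 261. With the replicate letter as a block 372 were called, 166 higher and 206 lower.

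The fall of TC06000640.hg.1 was the largest among the clusters that passed the test and separated the groups. Its log2 signal was 5.82, 5.83, 5.83, 5.75 and 5.77 on JHOC5 NT replicates a to e. On JHOC5 SPINK1 KD replicates c, d and e it was 3.95, 3.88 and 3.80. The groups were far apart, at 5.80 ± 0.039 (SD, n = 5) and 3.88 ± 0.075 (SD, n = 3), a change of -1.93 ± 0.066 (SE), which is 3.80-fold, with a limma adjusted p of 3.16e-13. The JHOC5 IL-6 KD arrays read 5.68, 5.81 and 5.92 and overlapped the NT arrays.

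TC06000761.hg.1 also fell. JHOC5 NT replicates a to e gave log2 signals of 7.18, 6.67, 6.91, 6.86 and 6.75, and SPINK1 KD replicates c, d and e gave 5.81, 5.38 and 5.06. Every knockdown array lay below every NT array, although the knockdown arrays differed among themselves, with an SD of 0.378. The change was -1.45 ± 0.124 (SE), with a limma adjusted p of 8.95e-08.

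Among the rises, TC06001338.hg.1 had log2 signals of 4.60, 4.79, 4.80, 5.18 and 5.44 on JHOC5 NT replicates a to e, and 5.87, 6.44 and 6.40 on the SPINK1 KD arrays c, d and e. The groups did not overlap. The change was 1.27 ± 0.149 (SE), with a limma adjusted p of 5.95e-06. In JHOC9 the same cluster lay between 3.40 and 3.61 on the NT arrays and between 3.44 and 3.52 on the SPINK1 KD arrays, a lower and nearly flat level.

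TC06001397.hg.1 had the highest rise, 1.44 ± 0.288 (SE) with a limma adjusted p of 0.00259, and its arrays were uneven. JHOC5 NT replicates a to e read 5.34, 5.44, 5.78, 5.75 and 6.34, and SPINK1 KD replicates c, d and e read 6.76, 6.64 and 8.10. The size of the mean rise therefore rests in part on replicate e, while all 3 knockdown arrays lay above all 5 NT arrays.

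The calls were uneven along the ID order. Of the 977 members numbered 1 to 1000, 9.01% were called with the SPINK1 virus in JHOC5, and of the 973 numbered above that and up to 2000, 10.2%. The shares were 4.63%, 2.21% and 3.85% for the next 993, the next 994 and the last 156 members, cut at 3000 and 4000. The median log2 signal of these 5 sections was 5.25, 5.20, 4.07, 3.71 and 5.44. The last section held 2 rises and 4 falls. Over all clusters 6.54% were called, and such sections of other codes were not examined. The part of signal level in these shares was not tested.

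Cut into 82 consecutive windows of 50 clusters (the last with fewer), the falls were unevenly spread, with 35 of the 155 in 3 windows and the rest elsewhere. The window numbered 153 to 202 held 13 falls, the window 1331 to 1380 held 11, and the window 1381 to 1430 held 11, where the median window held 1. The next highest counts were 8 in the window 253 to 303 and 7 in each of the windows 2001 to 2051 and 2104 to 2154. Among the 1219 windows of 50 cut in the same way from other chromosome codes, the highest number of falls was 11, reached by 1 window. The next window, 1431 to 1480, held 12 rises, and 12 was also the highest number of rises in a window of another code, again in 1 window. The 3 windows with most falls did not fall as a whole. Their median changes were 0.034, 0.022 and 0.158 in the order of the ID numbers, and they held 1, 3 and 5 rises. Among these rises, the clusters numbered 179, 1360, 1362, 1398 and 1408 share the same values on all arrays. The median of the window 1381 to 1430 was the highest of the 82, beside at most 0.148 in a window of another code. All of these windows were picked for their counts, so the counts are a description.

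**Figure D2:**
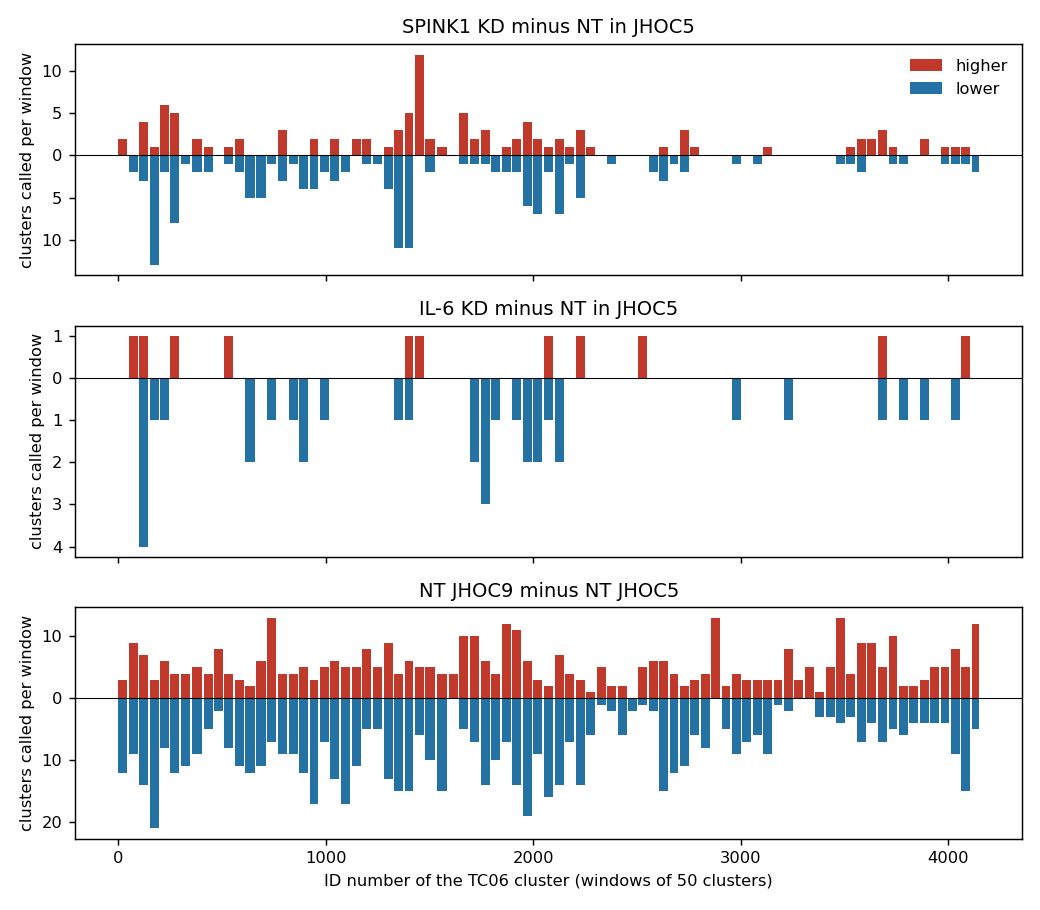
TC06 clusters called higher (upward bars) or lower (downward bars) per window of 50 clusters (y axis) along the ID number (x axis), for the SPINK1 virus in JHOC5, the IL-6 virus in JHOC5 and the NT arrays of JHOC9 minus JHOC5. With the SPINK1 virus the falls peak at 13, 11 and 11 in 3 windows and the rises at 12 in the window after them, while calls between the lines are spread over the whole range.

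The 35 falls of the 3 windows had a median change of -0.90 on the log2 scale in JHOC5, from -1.41 to -0.28, and no 2 of them shared their values. Their levels spanned most of the array's range, with JHOC5 NT means from 3.41 to 11.5. Several were direct neighbours. The runs of at least 4 consecutive called falls in this comparison were 170 to 173, 1341 to 1345, 1348 to 1351 and 1427 to 1430, and all 4 runs, 17 clusters together, lay in these windows. The count of 35 lay between 31 and 38 under all alternative settings and with each array left out.

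Set side by side over the 6 groups, the 35 clusters stood highest in JHOC5 NT and JHOC5 IL-6 KD arrays. For each array, the median over the 35 clusters was taken of the log2 value relative to the cluster's own median over the 22 arrays. On JHOC5 NT replicates a to e it was 0.638, 0.322, 0.615, 0.465 and 0.530, and on JHOC5 SPINK1 KD replicates c, d and e it was -0.272, -0.573 and -0.457. The JHOC5 IL-6 KD replicates a, b and c gave 0.445, 0.284 and 0.511, so with the IL-6 virus the range overlapped the NT arrays and with the SPINK1 virus it lay wholly below. Within the code, the separation in JHOC5 between SPINK1 KD and NT is what chose the 35 clusters.

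The change in JHOC9 was not used to pick these clusters from among the TC06 members. The JHOC9 arrays entered that choice through the shared spread of the fit, however. The code itself was chosen by earlier results of these same arrays, JHOC9 included, and which comparison led to it is not recorded. The JHOC9 values are therefore a description. In JHOC9, NT replicates a to e gave -0.009, 0.218, 0.052, -0.049 and -0.034. The SPINK1 KD replicates a, b and c gave -0.261, -0.173 and -0.219, and the IL-6 KD replicates b, d and e gave -0.132, -0.131 and -0.385. In JHOC9 all 6 knockdown arrays, of either virus, lay below all 5 NT arrays, and the group means were 0.036 ± 0.109 (SD, n = 5) for NT, -0.218 ± 0.044 (SD, n = 3) for SPINK1 KD and -0.216 ± 0.146 (SD, n = 3) for IL-6 KD.

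Cluster by cluster, 34 of the 35 changes in JHOC9 were below 0 with the SPINK1 virus, with a median of -0.24, and 34 of 35 with the IL-6 virus, with a median of -0.24. Among all clusters, 82.1% of the SPINK1 falls called in JHOC5 were below 0 in JHOC9 with that virus. For the IL-6 virus this share was not computed. The falls among all clusters were smaller in JHOC5, with a median of -0.45 beside -0.90 for the 35, so the shares are not of like changes. None of the 35 passed limma's test in JHOC9 with either virus, and the 2 comparisons share the 5 NT arrays. In JHOC5 the IL-6 virus gave a median of -0.06, with 24 of 35 below 0 and 2 called lower. The direct comparison of SPINK1 KD with IL-6 KD in JHOC5 had a median of -0.82, with 30 of 35 called lower, and shares the SPINK1 KD arrays that chose the clusters. Between the NT arrays the 35 were mostly lower in JHOC9, with a median of -0.53, 25 called lower and 2 called higher, against NT arrays of JHOC5 that also served the choice.

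**Figure D3:**
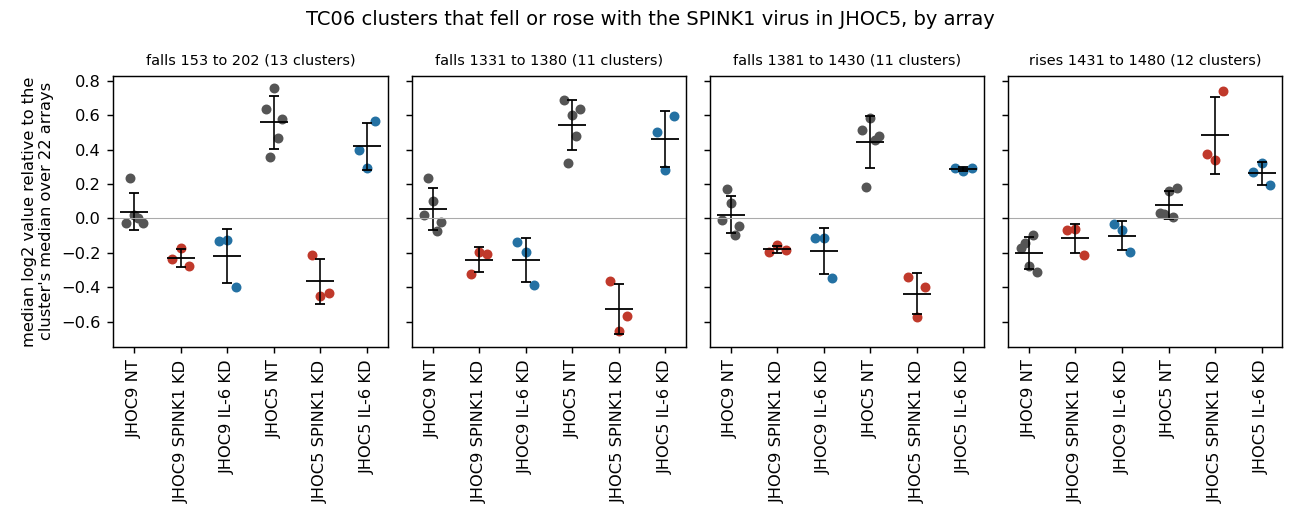
Median over the clusters of each set of the log2 value relative to the cluster's median over the 22 arrays (y axis), with 1 point per array, for the 6 groups (x axis, n = 5 NT and n = 3 of each knockdown in each line) in the 3 windows with most falls and the window with most rises. Horizontal marks and bars are group means ± SD, and in JHOC9 the knockdown arrays lie below the NT arrays in all 3 sets of falls.

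The 12 rises of the window 1431 to 1480 had 11 distinct value profiles and a median change of 0.44 in JHOC5 with the SPINK1 virus, from 0.27 to 0.72. Their per-array median was 0.373, 0.336 and 0.740 on JHOC5 SPINK1 KD replicates c, d and e, against a range of 0.009 to 0.178 on the JHOC5 NT arrays. With the IL-6 virus in JHOC5 the arrays lay between them, at 0.270, 0.321 and 0.193, all above the NT arrays, with a median change of 0.18 and none called by limma. In JHOC9 the median change was 0.16 with the SPINK1 virus and 0.13 with the IL-6 virus, none was called, and the arrays overlapped NT.

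With the SPINK1 virus in JHOC9, 2 TC06 clusters rose and 3 fell, 0.0489% and 0.0733% of the members, beside 0.0137% and 0.0702% of all clusters. Same-lettered NT and SPINK1 KD arrays varied together in this comparison, and with the replicate letter as a block 8 clusters were called, 3 higher and 5 lower. The 5 calls come from the fit without the letters and were fragile. The count was 2 without SPINK1 KD replicate a or b, 3 without NT replicate b or e, 1 with centred arrays, 3 with cyclic loess, 1 with the compared groups alone and 177 with array weights, which gave SPINK1 KD replicate b a weight of 6.46 and its partners a and c 0.594 and 0.419.

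The largest fall was again TC06000640.hg.1. JHOC9 NT replicates a to e read 4.64, 4.64, 4.72, 4.41 and 4.60, and SPINK1 KD replicates a, b and c read 4.02, 3.91 and 3.94. The groups did not overlap, with a change of -0.64 ± 0.066 (SE) and a limma adjusted p of 5.19e-05. The cluster thus started lower in JHOC9 and ended at a similar signal in both lines, 3.96 ± 0.057 and 3.88 ± 0.075 (SD, n = 3 each). Its JHOC9 NT values and its SPINK1 KD values in both lines lay below every array median (4.78 or more). The part of low signal in the similar end level was not tested. In the JHOC9 IL-6 KD arrays it was 4.29, 4.41 and 4.31, at -0.26 from NT with a limma adjusted p of 0.123.

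TC06000909.hg.1 fell by 0.57 ± 0.104 (SE) in JHOC9, from NT values of 7.17, 6.99, 6.78, 6.71 and 6.79 to 6.35, 6.46 and 6.14, with a limma adjusted p of 0.0344. In JHOC5 the same cluster fell with both viruses, by 0.94 with SPINK1 (limma adjusted p = 2.58e-06) and by 0.64 with IL-6 (limma adjusted p = 0.00158). Its JHOC9 call was lost in 12 of 30 settings, among them each left-out SPINK1 KD array.

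Rises in JHOC9 were small. TC06001193.hg.1 rose by 0.35 ± 0.055 (SE), from NT values of 6.89, 7.02, 6.97, 6.88 and 7.0 to 7.31, 7.29 and 7.29, with a limma adjusted p of 0.00968. It rose by 0.52 in JHOC5 (limma adjusted p = 1.44e-06). TC06002217.hg.1 rose by 0.32 in JHOC9 and 0.42 in JHOC5, with limma adjusted p of 0.0298 and 3.05e-05. Its JHOC9 call was lost in 10 of 30 settings, the replicate block among them, and that of TC06001193.hg.1 in 4.

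The group means compared share no arrays between the lines. The spread of each cluster was estimated over all 22 arrays, however, so the calls in the lines are not independent. All 3 falls called in JHOC9 were also called in JHOC5, which is 1.94% of the 155 falls there and 100% of the 3, and both rises were also called in JHOC5, 1.89% of the 106 rises there. Among all clusters 43 of the 46 falls called in JHOC9 were also called in JHOC5 (93.5%, and 1.70% of 2531), as were 6 of the 9 rises (66.7%, and 0.342% of 1753), so the overlap of the members' falls is near the background and that of the rises rests on 2 clusters. Of the 155 falls in JHOC5, 139 (89.7%) were below 0 in JHOC9, beside 82.1% of the falls among all clusters. Of the 106 rises, 89 (84.0%) were above 0, beside 81.9%. The median JHOC9 change of the 155 falls was -0.13, beside a median of -0.55 in JHOC5.

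Whether the SPINK1 effect differed between the lines was tested directly. The change in JHOC9 minus the change in JHOC5 was called for 49 TC06 clusters (1.20%), beside 1.24% of all clusters. For 39 (0.953%) it was above 0 and for 10 (0.244%) below 0, beside 1.03% and 0.214%. Leaving out JHOC9 SPINK1 KD replicate b or JHOC5 SPINK1 KD replicate d gave 27 calls, leaving out JHOC5 SPINK1 KD replicate e gave 30, and the replicate block gave 75. In the windows described above 15 of the 35 falls had a called difference, all above 0, and the cluster run 1427 to 1430 was called at all 4 places, with differences from 0.74 to 0.99. These clusters were chosen for a called fall in the JHOC5 change that the difference subtracts, so its sign is largely built in and the counts are a description.

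The largest differences above 0 were those of TC06000640.hg.1, at 1.28 ± 0.093 (SE, limma adjusted p = 3.09e-07), and of TC06000761.hg.1, at 1.14 ± 0.176 (SE, limma adjusted p = 0.00124). Below 0 stood TC06001338.hg.1, at -1.29 ± 0.211 (SE, limma adjusted p = 0.00204), and TC06003704.hg.1, at -1.14 ± 0.228 (SE, limma adjusted p = 0.0118). The last rose in JHOC5 from NT values of 3.63, 4.20, 4.10, 3.96 and 3.88 to 4.95, 5.17 and 4.96. In JHOC9 its NT arrays read 5.09, 5.45, 4.68, 4.68 and 4.79 and its SPINK1 KD arrays 5.08, 5.02 and 4.53, which overlapped. Its call for the difference was lost with centred arrays, with cyclic loess and without JHOC5 SPINK1 KD replicate d.

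**Figure D4:**
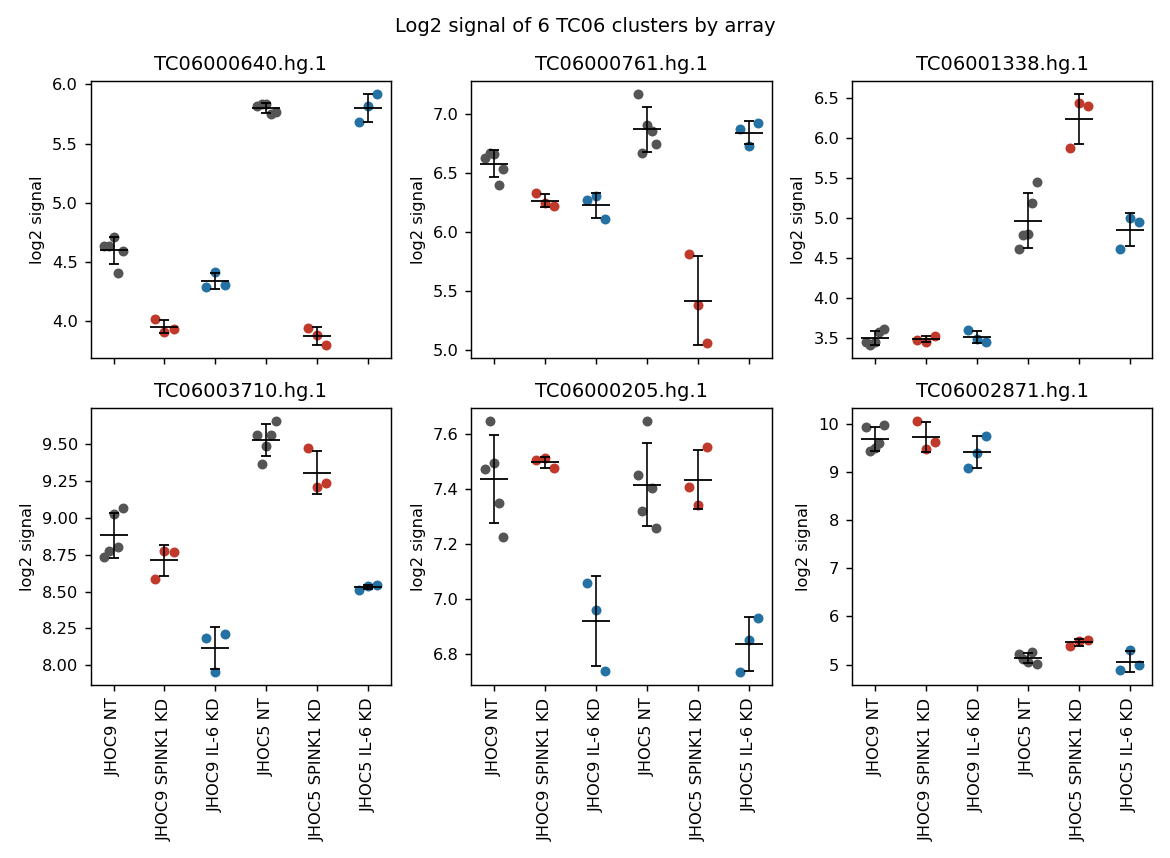
Log2 signal on every array (points) with group mean ± SD (marks and bars) for 6 TC06 clusters in the 6 groups (n = 5 NT and n = 3 of each knockdown in each line). The y axes differ between panels and do not start at 0. TC06000640.hg.1 falls to about the same signal in both lines with the SPINK1 virus, a signal below every array median. TC06003710.hg.1 and TC06000205.hg.1 fall with the IL-6 virus in both lines.

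With the IL-6 virus 11 TC06 clusters rose and 35 fell in JHOC5, 0.269% and 0.855% of the members, beside 0.435% and 0.954% of all clusters. None of the 46 changes reached 2-fold, and the median over all members was 0.018, beside 0.023 over all clusters. The split was 3 higher and 22 lower with centred arrays and 137 higher and 95 lower with array weights. The count was 23 without IL-6 KD replicate a, 26 without NT replicate d, 30 without NT replicate e and 18 with the compared groups alone. The falls were scattered, with at most 4 in a window of 50 and no run of 4.

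TC06003710.hg.1 had the largest fall with the IL-6 virus in both lines. In JHOC5 the NT replicates a to e read 9.56, 9.36, 9.49, 9.56 and 9.66, and the IL-6 KD replicates a, b and c read 8.51, 8.54 and 8.54. The groups were separated with almost no spread among the knockdown arrays, and the change was -0.996 ± 0.089 (SE) with a limma adjusted p of 1.25e-06. In JHOC9 the NT replicates read 8.73, 8.77, 9.02, 8.80 and 9.07 and the IL-6 KD replicates b, d and e read 8.18, 7.95 and 8.21.

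The JHOC9 change of TC06003710.hg.1 was -0.76 ± 0.089 (SE), with a limma adjusted p of 2.99e-04, lost with the compared groups alone. With the SPINK1 virus it changed by -0.17 in JHOC9 and -0.22 in JHOC5, with limma adjusted p of 1 and 0.176.

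TC06001777.hg.1 fell by 0.92 ± 0.107 (SE) in JHOC5 with the IL-6 virus, with a limma adjusted p of 3.30e-05. Its NT arrays read 8.05, 8.12, 8.31, 8.39 and 8.35 and its IL-6 KD arrays 7.16, 7.43 and 7.38. It also fell with the SPINK1 virus in JHOC5, by 0.54 (limma adjusted p = 0.00216), to 7.72, 7.62 and 7.75, so the arrays of the knockdowns lay in separate ranges below NT. The JHOC9 change with the IL-6 virus was -0.40, with a limma adjusted p of 0.152.

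Rises with the IL-6 virus in JHOC5 were led by TC06002230.hg.1, at 0.71 ± 0.172 (SE, limma adjusted p = 0.0401). Its NT arrays read 4.39, 4.72, 4.62, 4.71 and 4.12 and its IL-6 KD arrays 4.90, 5.49 and 5.27. TC06004099.hg.1 rose by 0.48 ± 0.108 (SE, limma adjusted p = 0.0259), from 8.5, 8.16, 8.26, 8.41 and 8.02 to 8.74, 8.67 and 8.83. These calls were lost in 15 and 9 of 30 settings.

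In JHOC9 the IL-6 virus gave fewer calls. There 2 TC06 clusters rose and 7 fell, 0.0489% and 0.171% of the members, beside 0.0412% and 0.201% of all clusters. The median change over the members was 0.032, beside 0.034 over all clusters. Single arrays moved the count. It was 17 without JHOC9 NT replicate d or IL-6 KD replicate d, 2 without NT replicate a, b or c, 3 without IL-6 KD replicate b and 1 without IL-6 KD replicate e. Arrays that enter only through the shared spread moved it as well, to 5 without JHOC9 SPINK1 KD replicate b, JHOC5 NT replicate c or d or JHOC5 SPINK1 KD replicate d, and to 4 without JHOC5 NT replicate a or e or JHOC5 IL-6 KD replicate b. With the compared groups alone limma called none, with 380 members at an unadjusted p under 0.05.

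Besides TC06003710.hg.1, TC06000205.hg.1 fell in JHOC9, by 0.52 ± 0.095 (SE, limma adjusted p = 0.0222). Its NT arrays read 7.47, 7.65, 7.50, 7.35 and 7.22 and its IL-6 KD arrays 7.06, 6.96 and 6.74. In JHOC5 it fell by 0.58 (limma adjusted p = 0.00177), from between 7.26 and 7.65 on the NT arrays to 6.73, 6.85 and 6.93. With the SPINK1 virus it stayed within the range of the NT arrays in JHOC5, at 7.41, 7.34 and 7.55. The JHOC9 call was lost without NT replicate a, b or c, without IL-6 KD replicate e and with the compared groups alone.

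The rises in JHOC9, TC06001314.hg.1 at 0.31 ± 0.064 (SE, limma adjusted p = 0.0491) and TC06002756.hg.1 at 0.27 ± 0.057 (SE, limma adjusted p = 0.0477), were at the threshold and were lost in 24 of 30 and 24 of 29 settings. Of the falls, 6 were called in both lines, which is 17.1% of the 35 in JHOC5 and 85.7% of the 7 in JHOC9. Among all clusters 87 were, 13.9% of 625 and 65.9% of 132. No rise was called in both lines, among the members or among all clusters.

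The IL-6 effect itself was not shown to differ between the lines for any TC06 cluster. Limma called 0 of 4093, beside 0.00305% of all clusters, 0.00153% above and 0.00153% below 0, and the lowest adjusted p among the members was 0.0752. At an unadjusted p under 0.05 there were 280 members (6.84%), beside 6.67% of all clusters. The count was 1 without JHOC5 NT replicate a or JHOC5 IL-6 KD replicate b and 28 with array weights.

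The knockdowns were also compared with each other. In JHOC5 227 TC06 clusters (5.55%) differed between the SPINK1 KD and IL-6 KD arrays, beside 5.97% of all clusters. SPINK1 KD was higher for 107 (2.61%) and lower for 120 (2.93%), beside 2.75% and 3.22%. The same windows stood out among the lower calls, with 11, 10 and 9 in the windows 153 to 202, 1331 to 1380 and 1381 to 1430, beside at most 9 in a window of another code. This comparison shares the SPINK1 KD arrays with the one against NT.

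TC06001770.hg.1 was 1.37 ± 0.168 (SE) higher with SPINK1 KD than with IL-6 KD in JHOC5, with a limma adjusted p of 1.21e-05. It read 8.13, 8.20 and 8.03 on the SPINK1 KD arrays, 6.52, 7.06 and 6.67 on the IL-6 KD arrays, and 6.75, 7.20, 7.16, 7.17 and 7.39 on the NT arrays, so SPINK1 KD stood above both other groups. TC06000421.hg.1 differed by -1.49 ± 0.106 (SE), with a limma adjusted p of 2.07e-08, at 7.10, 6.79 and 6.85 against 8.26, 8.46 and 8.49, where the NT arrays lay between 8.09 and 8.49. The largest differences in either direction were otherwise those of TC06001338.hg.1 (1.39) and TC06000640.hg.1 (-1.93), described above.

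In JHOC9 24 TC06 clusters (0.586%) differed, 16 higher (0.391%) and 8 lower (0.195%) with SPINK1 KD, beside 0.629%, 0.507% and 0.122% of all clusters. The split was 16 and 0 with centred arrays, 13 and 1 with cyclic loess and 148 and 242 with array weights. The count was 5 without SPINK1 KD replicate a or IL-6 KD replicate e, 6 without SPINK1 KD replicate b and 11 without IL-6 KD replicate b. It was 6 with the replicate block, 3 higher and 3 lower, and 0 with the compared groups alone, with 343 members at an unadjusted p under 0.05 in limma. TC06000115.hg.1 differed most, by 0.71 ± 0.089 (SE, limma adjusted p = 8.22e-04), with 7.84, 7.77 and 7.68 on the SPINK1 KD arrays and 6.86, 7.21 and 7.09 on the IL-6 KD arrays. With the compared groups alone its limma adjusted p was 0.217. Its NT arrays read 7.51, 7.45, 7.56, 7.50 and 7.61, between the knockdowns. In JHOC5 the same order held, with SPINK1 KD at 7.53, 7.41 and 7.56, NT between 7.11 and 7.39, and IL-6 KD at 6.48, 6.42 and 6.68, a difference of 0.98 between the knockdowns (limma adjusted p = 3.58e-07). The largest lower values in JHOC9, TC06000582.hg.1 at -0.64 and TC06000850.hg.1 at -0.61, had limma adjusted p of 0.0445 and 0.0476 and lost their calls in 18 of 29 settings.

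Between the control arrays of the lines the TC06 clusters differed far more than with either virus, and more of them were lower in JHOC9 than higher. Of the members 431 (10.5%) were called higher in JHOC9 and 665 (16.2%) lower, beside 17% and 13% of all clusters. At least 2-fold were 54 of the higher and 107 of the lower calls. The middle 90% of the members had changes between -0.69 and 0.39. Since the code was chosen from comparisons of codes on these arrays, the surplus of lower calls is a description.

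The scaling moved this split for the members and for all clusters together. With centred arrays 310 members were higher and 752 lower, beside 8633 and 9836 of all clusters. With cyclic loess the counts were 322 and 784, beside 8844 and 10129, where the fit on the deposited values gave 11161 and 8544 over all clusters. Lower calls outnumbered higher ones among the members under all 3 scalings, and among all clusters under the other 2 but not on the deposited values. The median change over the members was 0.032 beside 0.054 over all clusters, became -0.018 beside 0.004 with centred arrays and -0.014 beside 0.006 with cyclic loess, and was -0.001 beside 0.068 among clusters that passed the filter on dim ones. Its sign thus depended on the scaling, and it lay below the median of all clusters under each of these settings.

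Array by array, the median normalized value of the TC06 clusters minus that of all clusters was below 0 on all 11 JHOC9 arrays, from -0.028 to -0.001, and above 0 on all 11 JHOC5 arrays, from 0.006 to 0.0255. Within a line the groups overlapped. The means were -0.015 ± 0.007 (SD, n = 5), -0.014 ± 0.014 (SD, n = 3) and -0.019 ± 0.008 (SD, n = 3) for JHOC9 NT, SPINK1 KD and IL-6 KD, and 0.016 ± 0.008 (SD, n = 5), 0.012 ± 0.001 (SD, n = 3) and 0.016 ± 0.008 (SD, n = 3) for JHOC5. The offset is small beside the changes of single clusters and was present with every virus. Each cluster's values are centred on its median over the same arrays, 11 per line, so a difference between the lines takes opposite signs around 0. The code was chosen on these arrays, so the offset is a description.

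**Figure D5:**
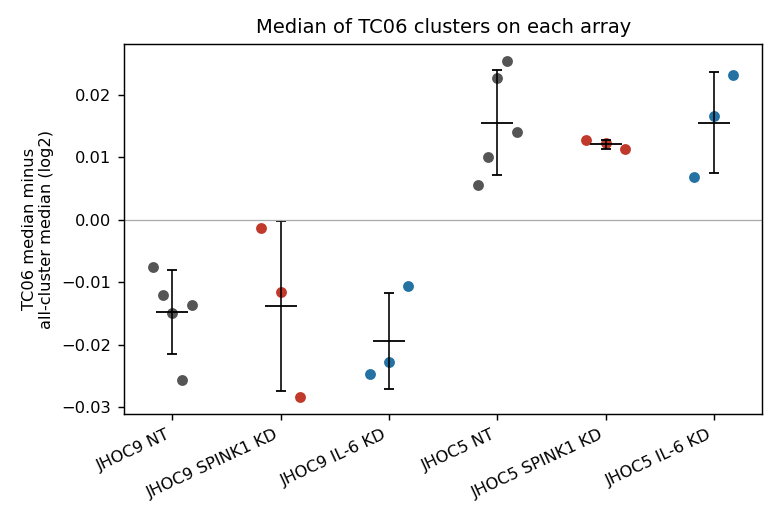
Median normalized log2 value of the TC06 clusters minus that of all clusters (y axis) on each of the 22 arrays (points), with group mean ± SD, in the 6 groups (x axis, n = 5 NT and n = 3 of each knockdown in each line). All 11 JHOC9 arrays lie below 0 and all 11 JHOC5 arrays above 0, between -0.028 and 0.0255. Each cluster is centred on its median over the 22 arrays.

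The named clusters that differed most between the lines did so by about 4 log2 units or more, with no overlap of the arrays. TC06002871.hg.1 read 9.93, 9.43, 9.50, 9.60 and 9.97 on the JHOC9 NT arrays and 5.21, 5.12, 5.06, 5.26 and 5.0 on the JHOC5 NT arrays. Its difference was 4.55 ± 0.131 (SE), with a limma adjusted p of 1.15e-16. In both knockdowns it stayed near its line's NT level, between 9.08 and 10.06 in JHOC9 and between 4.88 and 5.51 in JHOC5.

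TC06001658.hg.1 differed by 4.41 ± 0.112 (SE, limma adjusted p = 1.46e-17), with 10.63, 10.74, 10.77, 10.45 and 10.81 in JHOC9 NT and 6.59, 6.48, 5.82, 6.21 and 6.26 in JHOC5 NT. On the JHOC5 side stood TC06003987.hg.1, with 3.31, 3.66, 3.44, 3.58 and 3.78 in JHOC9 NT and 6.97, 7.46, 7.65, 7.78 and 8.03 in JHOC5 NT. Its difference was -4.03 ± 0.168 (SE, limma adjusted p = 4.67e-14). For TC06003119.hg.1 it was -3.98 ± 0.124 (SE, limma adjusted p = 4.05e-16), from 2.98, 3.47, 2.60, 2.93 and 2.74 to 6.77, 6.86, 6.86, 7.11 and 7.0. None of these 4 was called with either virus in either line.

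Along the ID order the window medians between the lines were mostly above 0. The window 153 to 202 had the lowest of the 82 medians, -0.16, with 21 clusters called lower in JHOC9 and 3 higher. It is also a window picked above for its SPINK1 falls in JHOC5, and both comparisons use the same 5 JHOC5 NT arrays, so the 2 values are not independent. Windows of other codes ranged more widely, from -0.24 to 0.52. The place of the lowest median moved with the window length, to 1406 to 1430 with windows of 25 and 1331 to 1430 with windows of 100. Window medians below 0 were found in 17 of the 82 windows. No window was without a call, and the median window held 7 lower and 5 higher calls.

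Neighbours in ID order often shared a direction between the lines. There were 20 runs of 4 or more consecutive called clusters, 16 of them lower in JHOC9 with 73 clusters and 4 higher with 20 clusters. Across the 4088 pairs of neighbours the differences between lines correlated at r = 0.177, and at 0.016 for clusters 100 places apart. For the SPINK1 virus the correlation of neighbours was 0.217 in JHOC5 (0.033 at 100 places) and 0.072 in JHOC9, and for the IL-6 virus it was 0.150 and 0.071. These correlations are across clusters, which share arrays and may share probes or transcripts, so they are a description without a test.

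The longest run lower in JHOC9 held 7 clusters, numbered 958 to 964, with changes from -1.23 to -0.24. Its strongest member, TC06000960.hg.1, read 5.13, 5.11, 5.27, 5.38 and 5.20 in JHOC9 NT and 6.59, 6.22, 6.72, 6.43 and 6.30 in JHOC5 NT, a difference of -1.23 ± 0.087 (SE, limma adjusted p = 2.43e-10). TC06000962.hg.1 differed by -1.0 (limma adjusted p = 6.21e-07), and the ends of the run, TC06000958.hg.1 and TC06000964.hg.1, by -0.24 and -0.61 (limma adjusted p = 0.0132 and 1.08e-07). TC06000963.hg.1, at -0.33, was the weakest but for TC06000958.hg.1 (limma adjusted p = 0.00285). With the SPINK1 virus it also fell in JHOC5, by 0.44 (limma adjusted p = 0.00398).

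The longest run higher in JHOC9 held 6 clusters, numbered 1307 to 1312, with changes from 0.18 to 2.05. TC06001308.hg.1 read 6.83, 6.62, 7.06, 6.55 and 6.74 in JHOC9 NT and 4.68, 4.63, 4.80, 4.65 and 4.78 in JHOC5 NT, a difference of 2.05 ± 0.132 (SE, limma adjusted p = 5.17e-11). TC06001310.hg.1 differed by 1.41 (limma adjusted p = 6.13e-09) and TC06001312.hg.1, the last of the run, by 0.90 (limma adjusted p = 9.52e-07). TC06001307.hg.1, the first, differed by 0.43 (limma adjusted p = 2.23e-04). The weakest, TC06001309.hg.1 at 0.18 (limma adjusted p = 0.0320), lost its call in 8 of 29 settings, which would break the run. It lay between 2.28 and 2.64 in JHOC9 NT and between 2.20 and 2.31 in JHOC5 NT. TC06001307.hg.1 lay between 3.34 and 3.80 and between 3.06 and 3.24. Both were below every array median (4.78 or more) in both lines. None of the members named for this run was called with either virus in either line.

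Some members carry the same measurement. Values equal within 1e-05 on all arrays were found in 63 TC06 clusters that form 25 sets, which leaves 4055 distinct profiles, and 42 TC06 clusters shared values with a cluster of another code. Of the 63, 24 are numbered 1 to 1000, 38 have numbers above that and up to 2000, and 1 has a higher number. The largest set holds 6 clusters, numbered 179, 1360, 1362, 1398, 1408 and 1432, which lie in the windows described above. Their common value rose by 0.43 ± 0.120 (SE) with the SPINK1 virus in JHOC5, with a limma adjusted p of 0.0347. Such clusters count as several in the totals, and counted once the 261 calls with the SPINK1 virus in JHOC5 were 252 profiles, the 1096 calls between lines 1086.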

How the data were processed

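Total RNA of 22 samples was measured on 1 Human Transcriptome Array 2.0 each. RMA, which corrects background, normalizes between arrays and summarises probes, is named without a version in the submitters' processing notes. Neither the software nor the annotation or genome build was given in the sources used here. The authors' deposited log2 values are centred: each is the log2 signal less that cluster's 22-array median (largest deviation 2.06e-06). A second deposited sheet gives linear intensity, headed Raw but already summarised per cluster (2.81 to 15242), and its log2 was used for levels.

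The means of the 6 groups, over all 22 arrays, were fitted together with limma 3.58.1 in R version 4.3.3 (16 residual and 4.22 prior degrees of freedom), with 9 contrasts tested two-sided by eBayes and adjusted by Benjamini-Hochberg over 65526 clusters. Figures used matplotlib 3.10.9 (Python 3.11.15). A change is a difference of log2 group means and its SE is the moderated one. The members, windows and lists were chosen with earlier results of these data known. Named clusters are the 2 largest rises and the 2 largest falls of each contrast with an adjusted p under 0.05 and separated groups (for differences of effects the adjusted p only), and the ends and extreme members of the longest runs between the NT groups. The fit was checked on simulated data with known changes.

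Same-lettered arrays deviated together for SPINK1 KD and NT in JHOC9, with correlations of 0.43, 0.32 and 0.20, so the letters may mark pairs there. The fit behind the printed changes, SEs and adjusted p did not include the letters. Only the count with the block, given beside it, uses them. Each other comparison had a pair at or under 0.1, or shared 1 letter only. Their other pairs could be higher, with correlations of 0.27, 0.06 and 0.37 for SPINK1 KD and NT in JHOC5. For IL-6 KD and NT they were 0.31, -0.04 and 0.48 in JHOC9 and 0.52, -0.002 and 0.40 in JHOC5. With the block these comparisons had 372, 10 and 55 calls. Alternatives were the replicate block, the compared groups alone, a dim-cluster filter (signal over the array's median on 3 or more arrays), arrays centred on their median, cyclic loess, array weights, eBayes with trend and robust, repeated clusters counted once, other window and run lengths, and each array left out.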

Additional observations from a re-analysis of the deposited data

Results flagged for a closer look

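The SPINK1 effect differed between the lines in limma's test of the difference for 49 TC06 clusters. TC06000640.hg.1, at 1.28 (JHOC9 minus JHOC5), and TC06000761.hg.1, at 1.14, fell more in JHOC5. TC06001338.hg.1, at -1.29, and TC06003704.hg.1, at -1.14, rose in JHOC5 and changed by -0.02 and -0.06 in JHOC9. On the JHOC9 NT arrays TC06001338.hg.1 lay between 3.40 and 3.61, below every array median (4.78 or more). TC06000640.hg.1 started lower in JHOC9 and ended at a similar signal in both lines, also below every array median. The part of the starting level in these differences was not tested.

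One array stood apart in the values of a named cluster. For TC06000964.hg.1, JHOC5 NT replicate e read 6.69, below the other NT arrays of that line, and its gap was 0.723 of the group's range. Of 72 groups of 5 arrays examined for such gaps this was the 1 that passed, and chance flags about 1 group in 20.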

How the results depend on the processing

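Of 42 named results, 27 kept their call in all settings run and 15 lost it in at least 1 of up to 30, and none reversed. Counts within 1.5 times of the reported one are not listed. For SPINK1 KD against NT in JHOC9 (5 called) the replicate block gave 8, centred arrays 1, cyclic loess 3, array weights 177 and the compared groups alone 1. For SPINK1 KD against NT in JHOC5 (261) array weights gave 427. For IL-6 KD in JHOC9 (9) centred arrays gave 5, cyclic loess 5 and the compared groups alone 0, and in JHOC5 (46) centred arrays gave 25, array weights 232 and the compared groups alone 18. For the difference of the SPINK1 effects (49) the replicate block gave 75 and array weights 209, and for that of the IL-6 effects (0) array weights gave 28. For SPINK1 KD against IL-6 KD in JHOC9 (24) the replicate block gave 6, cyclic loess 14, array weights 390 and the compared groups alone 0, with 343 members at an unadjusted p under 0.05. In JHOC5 (227) array weights gave 488 and the compared groups alone 124. The cause was not tested, except that the compared groups alone leave fewer arrays to estimate the spread. Leaving out 1 array gave ranges of 2 to 6, 160 to 276, 1 to 17, 23 to 45, 27 to 67, 0 to 1, 5 to 32 and 163 to 234 in the order of these comparisons, and 1012 to 1135 between the NT groups (1096). The lowest window median between the NT groups (-0.158, window 153 to 202) moved in value and place. It was -0.257 with windows of 25 (1406 to 1430) and -0.0925 with windows of 100 (1331 to 1430). With the filter on dim clusters it was -0.242 (94 to 174). Runs of 3 or more numbered 59 between the NT groups (20 of 4 or more) and 10 with the SPINK1 virus in JHOC5 (4). The falls in the 3 windows (35), whose alternatives were chosen after seeing the data, were 31 to 36 with 1 array left out. The replicate block moved no other count by over 1.5 times, and outside SPINK1 KD in JHOC9 the shared letters did not meet the rule for pairs. How far dim signal limits the calls could not be judged without background values.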
